A study of Mus musculus with 24 samples.

Results

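This account follows 32 genes known as targets of the transcription factor p53, other than Cdkn1a (p21), in mouse muscles in which the reprogramming factors Oct4, Sox2, Klf4 and c-Myc (OSKM) were switched on in myofibers. The genes were taken by symbol from a list of p53 targets, all 32 were found among the 24537 genes of the count table, and all 32 had enough counts to be tested. The question was whether a rise of Cdkn1a in OSKM-expressing muscle went together with changes of the other p53 targets. RNA was sequenced from whole extensor digitorum longus (EDL) and soleus (SOL) muscles of 2-month-old Acta1-Cre+/4Fhet (Cre+) and Acta1-Cre-/4Fhet (Cre-) mice given doxycycline (Dox, 1 mg/ml in drinking water) for 2.5 days, for 5.5 days or for 8.5 days, with 2 libraries in each of 12 groups and 24 in all. Both genotypes carried 1 copy of the Dox-inducible OSKM cassette and of a blocked rtTA transactivator, and both received Dox. Only Cre+ mice had the Cre recombinase, driven by the Acta1 promoter of skeletal muscle, which removes the block in myofibers. By its methods the study dropped samples that lacked OSKM overexpression, without naming them, and its RNA-seq results cover 2.5 and 8.5 days. The tests below therefore rest on these days, and the 5.5-day values are given separately. In whole muscle, fewer cells of a type and less RNA per cell cannot be told apart.

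p53 is a transcription factor that is held at low levels by the ubiquitin ligase Mdm2 and its relative Mdm4, and that accumulates after DNA damage, oncogene activity and other stress. It binds DNA as a tetramer at paired short motifs and raises genes that halt the cell cycle, repair DNA, trigger mitochondrial or receptor-driven apoptosis and adjust metabolism. In skeletal muscle, Cdkn1a, a cyclin-dependent kinase inhibitor, can also rise independently of p53 when muscle cells differentiate.

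Promoter sequences show p53 motifs close to the start sites of some members that changed. The promoters of Perp, Tnfrsf10b, Zmat3 and Trp53inp1, 4 of the 9 members that passed in EDL muscles, were not searched here. RefSeq promoter sequences (GRCm38.p6, the build of the counted gene models; 250 bases before to 50 bases after a start) were at hand for 24 of the 32 genes, as 31 promoters. They were searched on both strands for the p53 decamer by its usual consensus, for full sites, which are pairs of decamers at most 13 bases apart with at most 2 mismatches in all, and for the E box CACGTG, which is read by c-Myc among other factors. A decamer without mismatch was found in 11 of the 31 member promoters (35.48%), against 8.36% of all 32851 promoters of this length, and a full site in 29.03% against 10.07%. The E box was found in 16.13% of the member promoters and in 7.15% of all. The 4 promoters printed here belong to the comparison gene Cdkn1a and to the members Bax, Aen and Ccng1, which passed the test in the EDL muscle in opposite directions. The capitals mark the decamers of the best full site, which is the pair with the fewest mismatches whatever its gap.
Bax, chr7:45466849-45467148, minus strand: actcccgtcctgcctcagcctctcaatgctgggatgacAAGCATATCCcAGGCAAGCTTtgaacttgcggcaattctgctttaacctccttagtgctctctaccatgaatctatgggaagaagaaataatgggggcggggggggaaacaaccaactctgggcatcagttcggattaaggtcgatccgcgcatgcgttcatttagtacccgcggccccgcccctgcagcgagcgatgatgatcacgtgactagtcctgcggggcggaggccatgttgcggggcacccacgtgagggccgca
Aen, chr7:78895808-78896107, plus strand: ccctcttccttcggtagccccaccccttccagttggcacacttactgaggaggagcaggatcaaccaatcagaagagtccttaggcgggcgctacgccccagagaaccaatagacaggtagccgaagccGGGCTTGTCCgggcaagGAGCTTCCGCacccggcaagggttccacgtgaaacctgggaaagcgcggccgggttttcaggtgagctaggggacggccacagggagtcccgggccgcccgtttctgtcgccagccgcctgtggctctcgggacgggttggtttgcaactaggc
Ccng1, chr11:40755237-40755536, minus strand: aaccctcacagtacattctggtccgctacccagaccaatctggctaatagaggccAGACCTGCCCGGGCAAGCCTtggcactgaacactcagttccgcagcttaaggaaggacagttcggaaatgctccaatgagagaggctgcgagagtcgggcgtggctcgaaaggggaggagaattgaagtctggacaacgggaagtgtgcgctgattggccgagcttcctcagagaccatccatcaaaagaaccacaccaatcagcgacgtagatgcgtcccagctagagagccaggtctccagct
Cdkn1a, chr17:29090729-29091028, plus strand: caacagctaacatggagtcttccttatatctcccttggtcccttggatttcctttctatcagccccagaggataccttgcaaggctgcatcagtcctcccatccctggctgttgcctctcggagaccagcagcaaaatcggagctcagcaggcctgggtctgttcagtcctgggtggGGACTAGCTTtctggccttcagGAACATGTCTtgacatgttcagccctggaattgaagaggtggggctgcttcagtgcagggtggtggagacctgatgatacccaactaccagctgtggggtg
The Bax site lay 212 bases before the start with 1 mismatch, the Ccng1 site 195 bases before it with 1 mismatch and no gap, and the Aen site 121 bases before it with 2 mismatches. At the other listed start of Aen, which is the start of the counted gene model (promoter chr7:78895677-78895976), the same site begins 10 bases after the start and the window holds no E box. The marked Cdkn1a pair, at an upstream start of the gene, had 0 mismatches with a gap of 12 bases. Its second decamer also forms a pair without a gap with the next bases, tgacatgttc, which have 1 mismatch and were left in lower case. The promoter of the other Cdkn1a start (chr17:29093519-29093818) held neither a decamer nor a full site. E boxes, left in lower case, began 9 bases before and 35 bases after the start in Bax, and 79 bases before it in the printed promoter of Aen. Among the members that did not pass the test in either muscle, full sites with 1 mismatch were found in Gtse1 (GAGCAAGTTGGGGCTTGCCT) and Polk (GAACTAGCCTcAAACTTATTC), and with 2 mismatches in Ckap2, Gadd45a and Sesn1. The sites of Gtse1, Polk and Sesn1 lay at another listed start. The windows at the starts of their counted gene models held neither a decamer nor a full site. Neither a decamer nor a full site was found in the windows of Bbc3 and Eda2r, which rose. An E box began 64 bases before the start in the Bbc3 promoter chr7:16310181-16310480 and 44 bases after it in Eda2r. Another began 110 bases before the start in Fas, which did not pass in either muscle. These matches describe the sequence only.

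The libraries held between 36088781 and 54679082 counts. Levels are given as FPKM, which divides a count by the exon length of its gene and by its library's total, and changes as log2 fold changes of Cre+ over Cre- from the quasi-likelihood test of edgeR with TMM factors. A gene passed at a Benjamini-Hochberg adjusted p below 0.05, over all genes tested, with an absolute log2 fold change over 0.5. TMM sets the bulk of genes to no change, so the fold changes in EDL muscles lie lower than ratios of FPKM. Rises are thus smaller and falls larger than in FPKM. With library size alone the median change of all 15372 genes was 0.28 instead of -0.05 in the EDL muscle after 2.5 days, and 0.16 instead of -0.02 after 8.5 days. The tissue labels were borne out by 8 fast-muscle genes, which summed to at least 42160 FPKM in EDL libraries and at most 29050 FPKM in SOL libraries. Summed transcripts of 4 Y-linked genes were between 54.2 and 66.7 FPKM in the 8 libraries of 2.5 days and at most 0.33 FPKM in those of 5.5 and 8.5 days, so days of Dox and the sex of the mice cannot be told apart. The replicates differed most in the EDL Cre+ group of 2.5 days and the EDL Cre- group of 8.5 days, where the chi-square of their counts averaged 147 and 139 a gene, against 26.4 to 74.6 in the other 10 groups. What this difference did to the results was tested only by leaving out each library. Liver transcripts summed to between 49.8 and 136 FPKM in SOL Cre- libraries of 8.5 days and to at most 20.7 FPKM in the SOL Cre+ libraries of that day.

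In Cre- muscles most of the 32 targets were expressed. In each muscle, 26 of 32 had a mean of at least 0.5 FPKM over the 4 Cre- libraries of 2.5 and 8.5 days, and 10 reached 10 FPKM. Ccng1, a cyclin that recruits a phosphatase to Mdm2, was the highest, with 177 ± 57.8 FPKM in the EDL and 134 ± 41.3 FPKM in the SOL (SD, n = 4). Phlda3, which competes with Akt for membrane lipids, followed with 146 ± 25.8 and 106 ± 17.7 FPKM, and the ranges of both genes overlapped within each muscle. Ckap2, Gtse1, Pidd1, Pmaip1, Psrc1 and Rprm had means below 0.5 FPKM in both muscles, with single SOL libraries of up to 0.90 FPKM for Rprm and 0.64 FPKM for Pidd1. These include the Bcl2-family gene Pmaip1 (Noxa) and the mitotic genes Gtse1, Ckap2 and Psrc1, and their changes carry standard errors between 0.33 and 1.24 on the log2 scale in the tests of Cre+ against Cre- at 2.5 and 8.5 days.

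**Figure D1:**
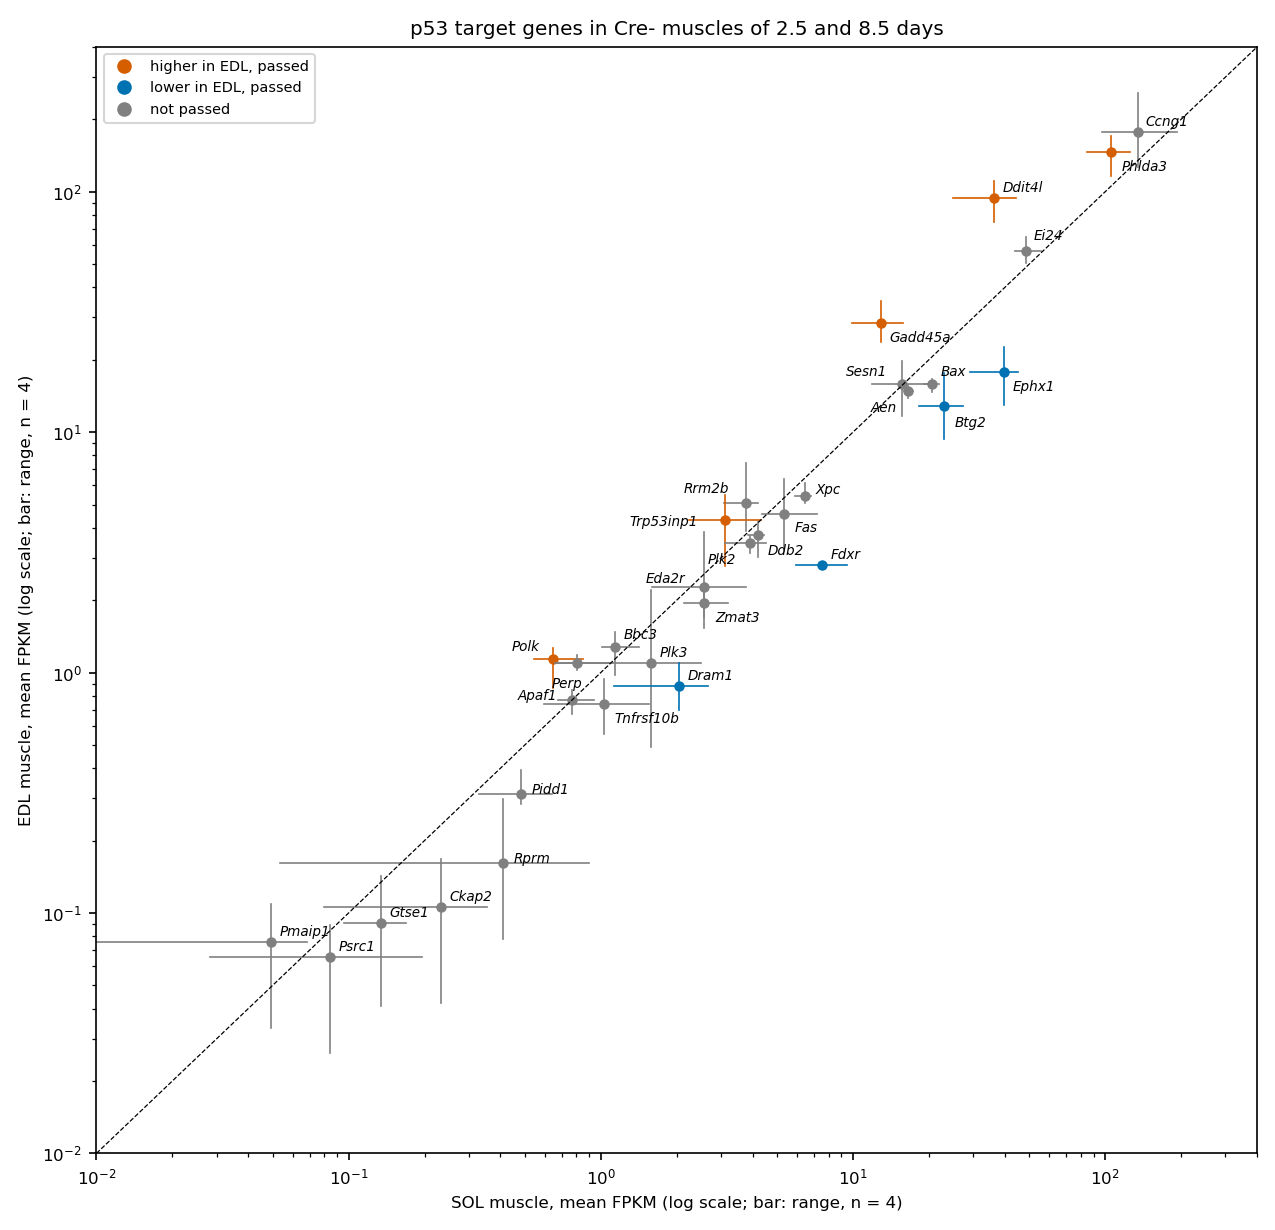
Mean FPKM of each of the 32 genes in Cre- SOL muscles (horizontal, log scale) against Cre- EDL muscles (vertical, log scale), over 4 libraries of 2.5 and 8.5 days, with bars from the lowest to the highest library. Ddit4l, Gadd45a, Polk, Phlda3 and Trp53inp1 lie above the line of equal levels, and Fdxr, Dram1, Ephx1 and Btg2 lie below it.

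Without OSKM, single p53 targets differed between the muscles at about the rate of other genes. Of the 32 genes, 5 were higher and 4 were lower in the EDL than in the SOL of Cre- mice, where 10.8% of all genes were higher and 11.1% lower. Ddit4l, an inhibitor of mTOR signalling, was higher by 1.47 ± 0.20 (standard error; adjusted p = 0.000141), and the growth-arrest gene Gadd45a by 1.23 ± 0.23 (adjusted p = 0.0012). The translesion polymerase Polk (0.91), Trp53inp1 (0.60) and Phlda3 (0.56) were also higher. The mitochondrial reductase gene Fdxr was lower by 1.32 on the log2 scale, at 2.79 ± 0.07 FPKM in the EDL against 7.53 ± 1.45 FPKM in the SOL (SD, n = 4; edgeR adjusted p = 2.11e-06). The autophagy gene Dram1 (-1.12), the epoxide hydrolase gene Ephx1 (-1.08) and the antiproliferative gene Btg2 (-0.75) were lower as well. DESeq2 on the same libraries, an alternative added after the data were seen, gave 6 higher and 4 lower, with Ccng1 as the extra gene (10.4% and 11.4% of all genes). With same-numbered EDL and SOL libraries of a group as a block, also added after the data were seen, the same 5 and 4 genes passed, where 11.2% and 11.9% of all genes did. The sample labels do not say that such libraries came from 1 mouse. With library size alone Phlda3 and Trp53inp1 did not pass, and the same held without SOL Cre- replicate 2 of 8.5 days. Trp53inp1 was also lost without EDL Cre- replicate 2 or SOL Cre- replicate 1 of 2.5 days or EDL Cre- replicate 1 of 8.5 days. In the same comparison 7 of 8 satellite cell and myoblast markers were lower and 1 higher in the EDL, 3 of 6 erythroid markers and 2 of 7 fibroblast markers were higher, and their part in the result was not tested.

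After 2.5 days of Dox, 7 of the 32 targets rose in Cre+ EDL muscles and 0 fell. Among all genes tested, 13.8% rose and 10.2% fell, and the median change was 0.08 for the 32 targets and -0.05 for all genes. The 7 were Aen, Bax, Bbc3 and Perp among the 8 apoptosis effectors, Eda2r and Tnfrsf10b among the 3 death receptors, and Zmat3 among the 3 modulators of p53, Akt and RNA stability. None of the 9 genes of cell cycle control, of the 4 genes of DNA repair and nucleotide supply, or of the 5 genes of metabolism and autophagy passed. Without a shift to the bulk of genes, that is with library size alone, 12 targets rose and 0 fell, where 27.4% of all genes rose and 3.97% fell. Single libraries bore on these calls: Bbc3 and Zmat3 passed without Cre- replicate 1, Bax and Zmat3 without Cre- replicate 2, Aen, Bax, Eda2r, Perp and Zmat3 without Cre+ replicate 1, and Bbc3, Eda2r and Zmat3 without Cre+ replicate 2. The share of all genes that rose in these fits was 9.26%, 9.51%, 15.9% and 8.17%. Without Cre+ replicate 1, Ddb2, Gadd45a and Phlda3 were lower, where 11.2% of all genes were. Cre+ replicate 2 had the higher Pou5f1 (70.5 FPKM, against 17.5 FPKM in replicate 1).

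**Figure D2:**
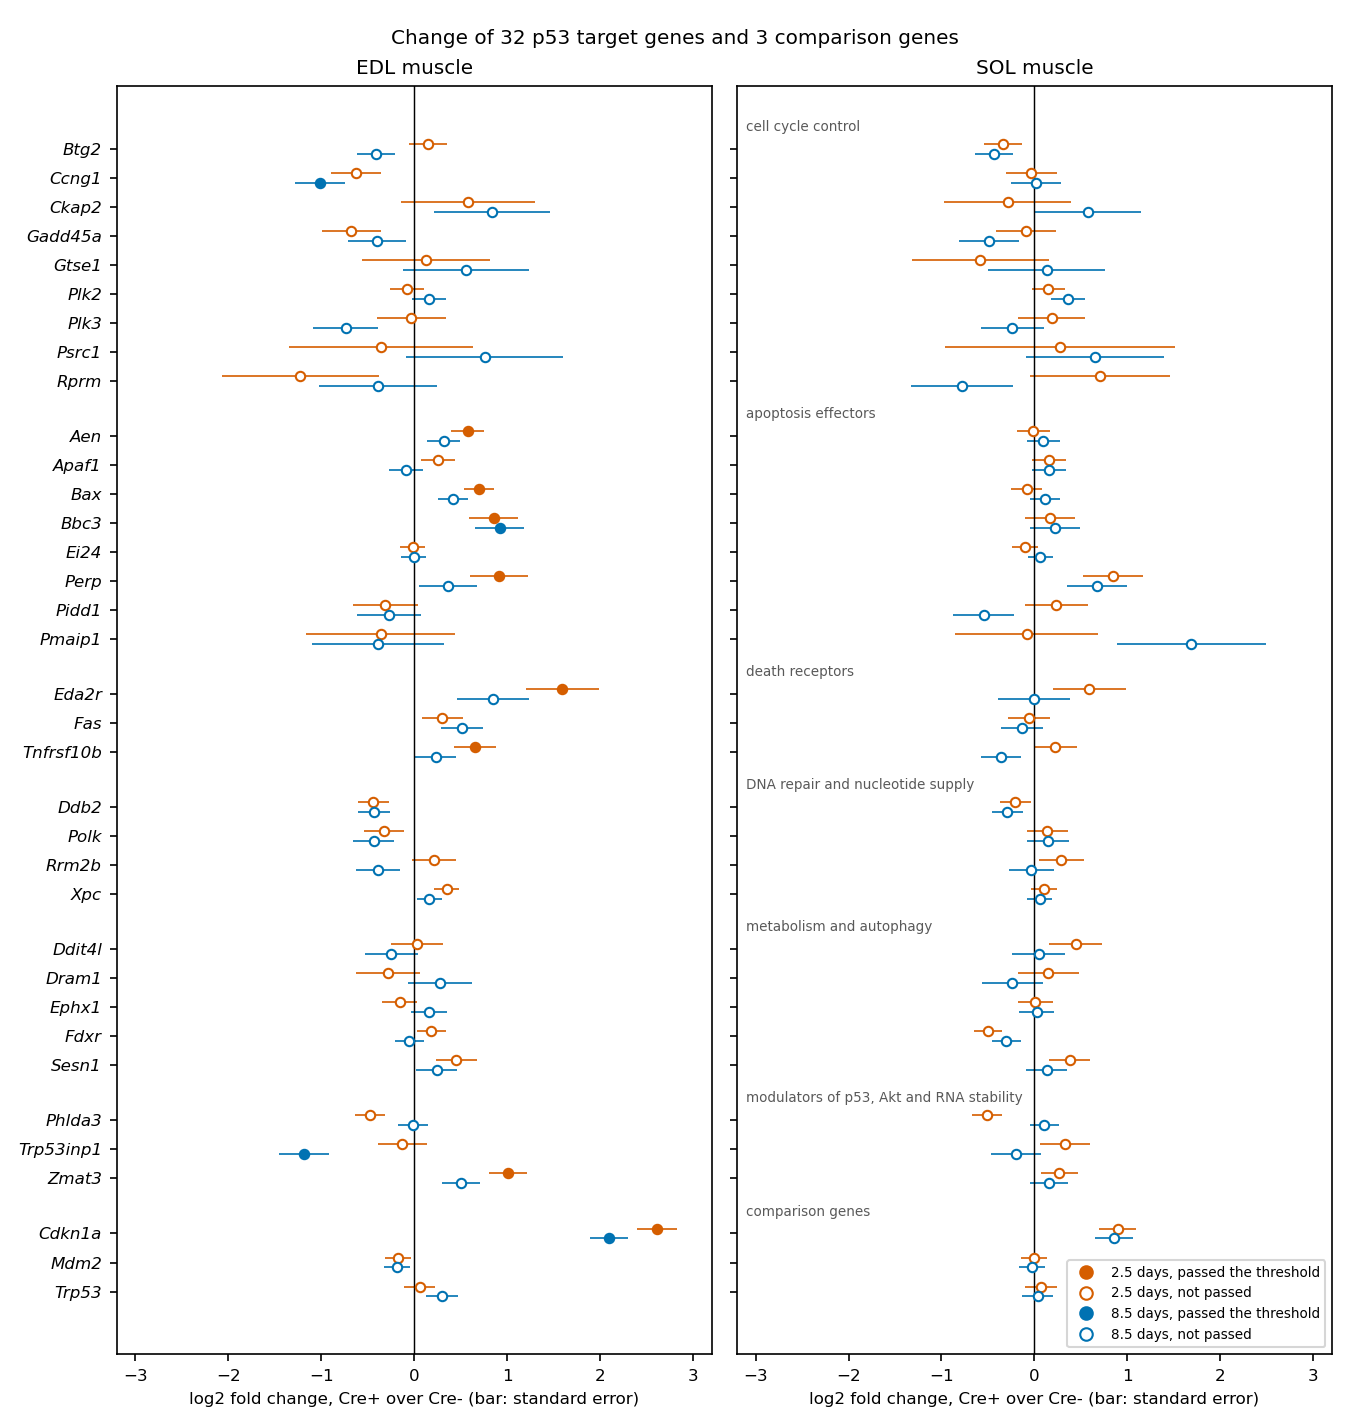
Log2 fold change of Cre+ over Cre- for the 32 genes by role and for Cdkn1a, Mdm2 and Trp53, in EDL (left) and SOL muscles (right), after 2.5 days (orange) and 8.5 days (blue); bars are standard errors and filled points passed the threshold. Filled points among the members occur in the EDL panel only, 7 at 2.5 days and 3 at 8.5 days, while Cdkn1a lies at 2.61 and 2.09.

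Eda2r, a receptor of the TNF family for the ectodysplasin EDA-A2, had the largest of these changes. Its level was 1.78 and 1.90 FPKM in the Cre- EDL libraries of 2.5 days and 7.68 and 6.26 FPKM in the Cre+ libraries. The groups were far apart, and the change was 1.60 ± 0.40 (adjusted p = 0.00981). After 8.5 days the Cre- libraries were at 3.85 and 1.53 FPKM and the Cre+ libraries at 5.26 and 5.62 FPKM. Both Cre+ libraries lay above both Cre- libraries again, but the Cre- pair was spread widely and the change of 0.85 ± 0.39 did not pass (adjusted p = 0.166). Without Cre- replicate 1 of that day it was 1.64 (adjusted p = 0.0327), and without replicate 2 it was 0.34.

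Zmat3, a zinc finger protein that binds RNA and acts in splicing and RNA stability, was at 1.70 and 1.80 FPKM in the Cre- EDL libraries and at 3.19 and 5.74 FPKM in the Cre+ libraries after 2.5 days. The change was 1.01 ± 0.20 (adjusted p = 0.00295). It was the 1 member that passed at 2.5 days without any single EDL library of that day, with 0.58 to 1.34. After 8.5 days the values were 2.34 and 1.96 FPKM in Cre- and 3.68 and 3.24 FPKM in Cre+ libraries, with a change of 0.51 ± 0.20 that did not pass (adjusted p = 0.112).

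The apoptosis effectors that rose act at the mitochondrion, at the membrane and in the nucleus. Bax, which forms pores in the outer mitochondrial membrane, was at 16.5 and 16.7 FPKM in Cre- and at 26.4 and 41.8 FPKM in Cre+ EDL libraries after 2.5 days. The groups did not overlap, and the change was 0.70 ± 0.16 (adjusted p = 0.0065). Without Cre+ replicate 2 it was 0.39 (adjusted p = 0.0881), and without Cre- replicate 1 it was 0.67 (adjusted p = 0.0516). After 8.5 days Bax was at 15.7 and 14.7 FPKM in Cre- and at 24.3 and 21.7 FPKM in Cre+ libraries, with a change of 0.42 ± 0.16 (adjusted p = 0.102). Bbc3 (Puma), a BH3-only protein that releases Bax from its inhibitors, was the 1 member that rose at both days. Its levels were 1.47 and 0.98 FPKM in Cre- and 3.01 and 2.53 FPKM in Cre+ libraries after 2.5 days, and 1.45 and 1.2 FPKM against 2.62 and 3.04 FPKM after 8.5 days. The changes were 0.86 ± 0.26 (adjusted p = 0.0286) and 0.92 ± 0.26 (adjusted p = 0.0323), almost the same size. At 8.5 days the call was lost without any 1 of the 4 EDL libraries, with changes between 0.75 and 1.07 and adjusted p between 0.0792 and 0.164.

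Perp, a desmosomal membrane protein with a part in apoptosis, was at 1.03 and 1.18 FPKM in Cre- and at 2.15 and 3.12 FPKM in Cre+ EDL libraries after 2.5 days, a change of 0.92 ± 0.31 (adjusted p = 0.0437). After 8.5 days it was at 1.08 and 1.11 FPKM against 1.69 and 1.51 FPKM and did not pass (0.37 ± 0.31). Aen, a nuclear exonuclease, was at 14.3 and 13.9 FPKM in Cre- and at 19.2 and 34.1 FPKM in Cre+ libraries after 2.5 days. Its change of 0.58 ± 0.18 (adjusted p = 0.0288) rested on Cre+ replicate 2, without which it was 0.16 (adjusted p = 0.442). Tnfrsf10b, the mouse TRAIL receptor, was at 0.60 and 0.55 FPKM in Cre- and at 1.11 and 1.17 FPKM in Cre+ libraries, a change of 0.65 ± 0.23 just inside the threshold (adjusted p = 0.0482). After 8.5 days it was at 0.87 and 0.94 FPKM against 1.33 and 1.08 FPKM, a change of 0.23 ± 0.22 that did not pass. Of the other effectors, Ei24 was the highest, at 50.7 to 65.0 FPKM in Cre- EDL libraries, and its changes were -0.01 at both days. Apaf1, the core of the apoptosome, had changes of 0.26 and -0.09, and the receptor Fas had changes of 0.30 and 0.51 (adjusted p = 0.337 and 0.148).

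**Figure D3:**
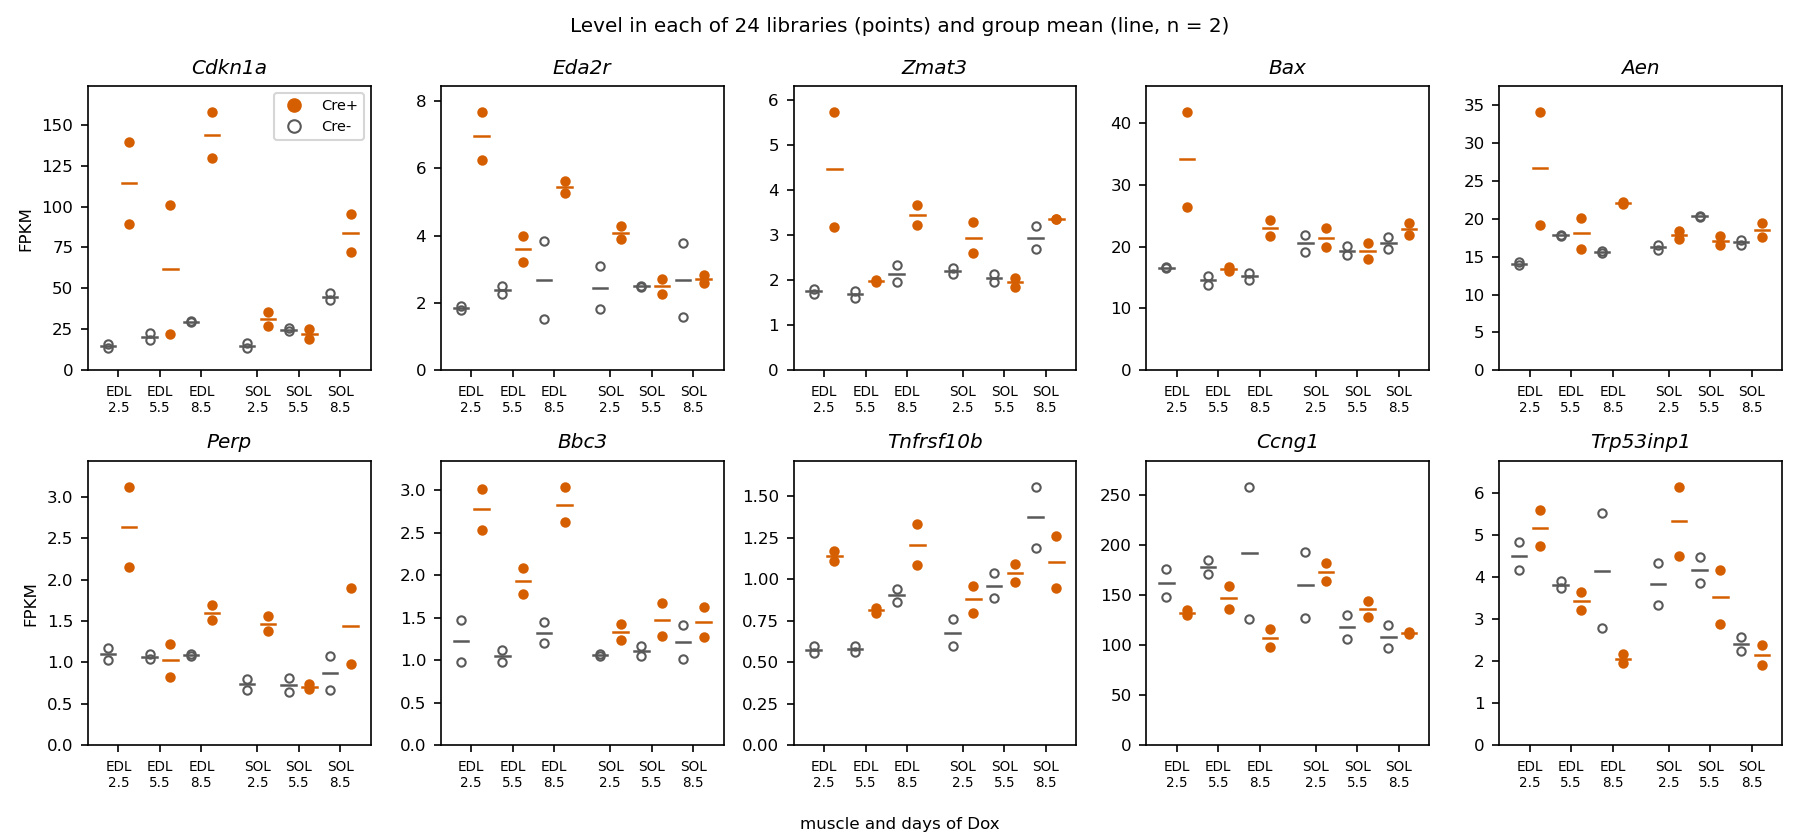
FPKM in each library (points) and the group mean (line) for Cdkn1a and the 9 members that passed in the EDL muscle, by muscle and days of Dox, Cre+ in orange and Cre- in open grey. In EDL muscles of 2.5 days both Cre+ points lie above both Cre- points for the 7 members that rose, and in Ccng1 and Trp53inp1 at 8.5 days both Cre+ points lie below a widely spread Cre- pair. These members are shown because they passed, and the share of all genes with groups that do not overlap was not counted. FPKM is not shifted to the bulk of genes, whose median change with library size alone was 0.28 in EDL muscles of 2.5 days.

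After 8.5 days, 1 of the 32 targets was higher in Cre+ EDL muscles (Bbc3) and 2 were lower, against 7.63% and 6.5% of all genes. The median change was 0.08 for the 32 targets and -0.02 for all genes. Ccng1 was at 258 and 126 FPKM in the Cre- libraries and at 98.6 and 116 FPKM in the Cre+ libraries. The Cre+ pair lay below the Cre- pair, of which 1 library stood high, and the change was -1.01 ± 0.27 (adjusted p = 0.0242). Without Cre- replicate 1 it was -0.43 (adjusted p = 0.301), and it was also lost without Cre+ replicate 1 (-0.85) and without Cre+ replicate 2 (-1.19, adjusted p = 0.0518). After 2.5 days Ccng1 was at 148 and 176 FPKM in Cre- and at 135 and 130 FPKM in Cre+ libraries, a change of -0.63 ± 0.27 that did not pass (adjusted p = 0.106).

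Trp53inp1, a stress protein of autophagy and of p53 phosphorylation, was at 5.50 and 2.78 FPKM in Cre- and at 2.18 and 1.94 FPKM in Cre+ EDL libraries after 8.5 days. Its change was -1.18 ± 0.27 (adjusted p = 0.0109). The same Cre- replicate 1 that was high for Ccng1 was high here, and without it the change was -0.63 (adjusted p = 0.134). The call was also lost without Cre+ replicate 1 (-1.21, adjusted p = 0.0841) and without Cre+ replicate 2 (-1.15, adjusted p = 0.0639). After 2.5 days the change was -0.13 ± 0.26. Trp53inp1 was the 1 member whose change differed between days in EDL muscles at an unadjusted p under 0.05 in edgeR (-1.06 ± 0.38), and it did not pass over all genes (edgeR adjusted p = 0.405). No gene passed in this test of 8.5 against 2.5 days in either muscle (0% of 15372 in both), with 1469 genes in EDL and 403 in SOL muscles at an unadjusted p under 0.05. In EDL muscles 2.61% of all genes passed without Cre+ replicate 1 of 2.5 days, 106 higher and 306 lower, and at most 6 genes without any other library, with 0 of the 32 among them in each case. DESeq2 gave 143 and 10 genes in these tests and none of the 32.

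Averaged over both days, 5 of the 32 targets were higher in Cre+ EDL muscles and 2 were lower, where 13.1% and 11% of all genes were. The higher ones were Eda2r (1.22 ± 0.28, adjusted p = 0.00426), Bbc3 (0.89 ± 0.19, adjusted p = 0.00252), Zmat3 (0.76 ± 0.14, adjusted p = 0.00129), Perp (0.64 ± 0.22, adjusted p = 0.0372) and Bax (0.56 ± 0.11, adjusted p = 0.00214). Ccng1 (-0.82 ± 0.19, adjusted p = 0.00517) and Trp53inp1 (-0.65 ± 0.19, adjusted p = 0.0163) were lower. Eda2r, Bbc3, Zmat3 and Ccng1 passed without any 1 of the 8 EDL libraries, while Bax was lost without Cre+ replicate 2 of 2.5 days, Trp53inp1 without Cre- replicate 2 or Cre+ replicate 2 of 2.5 days or Cre- replicate 1 of 8.5 days, and Perp without any library but Cre+ replicate 1 of 2.5 days. DESeq2 gave 5 higher and 3 lower, the third being Gadd45a (13.1% and 10.7% of all genes). Library size alone gave 10 higher and 1 lower (23.7% and 4.93%), with Ccng1 still lower and Trp53inp1 lost. Aen (0.45), Tnfrsf10b (0.44) and the damage-sensor gene Ddb2 (-0.44) had adjusted p below 0.05 but changes under 0.5. The growth-arrest group held no gene that rose: of its better expressed members, Gadd45a was at -0.54 (edgeR adjusted p = 0.0785), Btg2 at -0.13 and the kinase gene Plk2 at 0.04. In DNA repair, Xpc, which recognises lesions, was at 0.26 (adjusted p = 0.0536), Polk at -0.38 and Rrm2b, a subunit of ribonucleotide reductase, at -0.09. In metabolism, the antioxidant gene Sesn1 was at 0.35 (adjusted p = 0.0991), Ddit4l at -0.11, Ephx1 at 0.00 and Fdxr at 0.07. Markers of endothelium (4 of 7 lower at 2.5 days, 0 of 7 at 8.5 days), fast fibres (4 of 8 lower at 2.5 days, 2 of 8 at 8.5 days) and liver (1 of 8 higher at 2.5 days, 4 of 8 lower at 8.5 days) changed in the same EDL comparisons, and their part in the result was not tested. Liver markers summed to between 15.8 and 16.5 FPKM in Cre- and between 13.8 and 14.0 FPKM in Cre+ EDL libraries of 8.5 days. None of the 10 macrophage or 8 slow-fibre markers passed at either day. Macrophage markers summed to between 72.3 and 91.9 FPKM in Cre- and between 67.2 and 102 FPKM in Cre+ EDL libraries of 2.5 days, and to between 127 and 128 FPKM and between 146 and 197 FPKM at 8.5 days. Cycling-cell markers summed to between 0.57 and 0.75 FPKM in Cre- and between 0.77 and 1.44 FPKM in Cre+ EDL libraries of 2.5 days. At 8.5 days the sums were between 1.7 and 2.51 FPKM in Cre- and between 1.55 and 5.35 FPKM in Cre+ libraries. None of the 10 genes passed at either day, 8 of 10 changes were positive at each day, and their part in the result was not tested. Ccnb1 was at 0 in both Cre- libraries of 2.5 days.

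**Figure D4:**
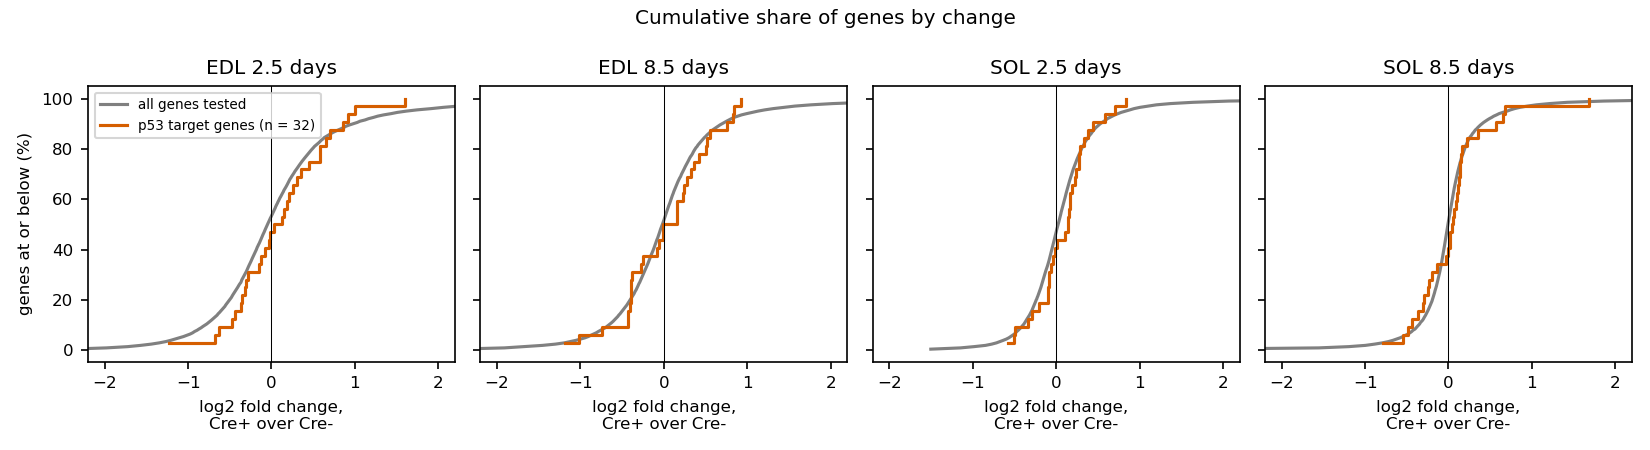
Cumulative share of genes (%) by log2 fold change for the 32 targets (orange steps) and all 15372 genes tested (grey), in each muscle and day of the main tests. The orange steps lie close to the grey curve in each panel, with medians of 0.08 against -0.05 (EDL, 2.5 days), 0.08 against -0.02 (EDL, 8.5 days), 0.14 against 0.02 (SOL, 2.5 days) and 0.05 against -0.01 (SOL, 8.5 days).

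In SOL muscles 0 of the 32 targets passed edgeR's threshold after 2.5 days and 0 after 8.5 days, where 0.384% and 0.631% of all genes did. At an unadjusted p under 0.05 there were 3 of 32 targets after 2.5 days and 0 after 8.5 days, against 2053 and 1015 of all 15372 genes. Phlda3 was the lowest of the better expressed genes at 2.5 days, with 125 and 115 FPKM in Cre- and 105 and 82.2 FPKM in Cre+ libraries. Its change of -0.51 ± 0.16 had an adjusted p of 0.188 in edgeR and passed in DESeq2 on the same libraries (-0.53, adjusted p = 0.0437), which gave no other member in SOL muscles. Perp had the same sign as in EDL muscles, at 0.84 ± 0.32 (adjusted p = 0.281) and 0.67 ± 0.32 (adjusted p = 0.782). Its levels were 0.81 and 0.67 FPKM in Cre- and 1.56 and 1.38 FPKM in Cre+ libraries of 2.5 days, without overlap, and 1.07 and 0.67 FPKM against 1.90 and 0.99 FPKM at 8.5 days, with overlap. Bax was at 19.2 and 21.9 FPKM in Cre- and at 23.0 and 19.9 FPKM in Cre+ SOL libraries of 2.5 days, with overlap, and at 19.6 and 21.6 FPKM against 23.8 and 21.9 FPKM at 8.5 days, without overlap. At 2.5 days the SOL groups of Eda2r (1.81 and 3.10 against 4.28 and 3.90 FPKM) and of Bbc3 (1.08 and 1.05 against 1.24 and 1.42 FPKM) did not overlap either, with Cre+ higher as in EDL muscles. At 8.5 days both overlapped, with Cre- libraries from 1.6 to 3.77 FPKM and Cre+ libraries from 2.59 to 2.82 FPKM for Eda2r, and from 1.01 to 1.42 FPKM and from 1.28 to 1.62 FPKM for Bbc3. Higher Cre+ groups without overlap in SOL muscles of 2.5 days were also found for Aen and Tnfrsf10b, and for Sesn1 and Xpc, which passed in neither muscle. FPKM is not shifted to the bulk of genes, and with library size alone the median change of all genes there was 0.18. The share of all genes with groups that did not overlap was not counted. The changes of Eda2r, Zmat3, Bbc3 and Bax were 0.59, 0.27, 0.17 and -0.09 after 2.5 days. Ccng1 and Trp53inp1, which were lower in Cre+ EDL muscles of 8.5 days, had overlapping groups in the SOL muscle of that day, with 97.2 and 120 FPKM against 111 and 113 FPKM for Ccng1 and with 2.57 and 2.24 FPKM against 2.39 and 1.91 FPKM for Trp53inp1. Averaged over both days, 0 of 32 passed in SOL muscles by edgeR or DESeq2 (1.47% of all genes by edgeR and 2.95% by DESeq2), with 3 at an unadjusted p under 0.05 in edgeR, against 2499 of all 15372 genes. OSKM levels differed between the muscles, with Pou5f1 (Oct4) between 17.5 and 76.2 FPKM in Cre+ EDL libraries of 2.5 and 8.5 days and between 5.02 and 12.2 FPKM in Cre+ SOL libraries.

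The difference between muscles was tested directly as the EDL change minus the SOL change. None of the 32 targets passed by edgeR at 2.5 days (4.25% of all genes did) or at 8.5 days (0.592%), with 4 and 2 of 32 at an unadjusted p under 0.05, against 3221 and 1729 of all 15372 genes. Bax came nearest at 2.5 days, with a difference of 0.79 ± 0.23 (adjusted p = 0.0707), followed by Fdxr at 0.68 ± 0.22 (adjusted p = 0.0948), which stood at 0.18 in EDL and -0.50 in SOL muscles. DESeq2 gave both Bax and Fdxr at 2.5 days and none at 8.5 days, where it gave 9.43% and 2.24% of all genes. Without EDL Cre+ replicate 1 of 2.5 days, edgeR gave Aen, Bax and Zmat3 (11.3% of all genes), and without any other library of that day 0 members (0.739% to 1.88%). Without EDL Cre- replicate 2 of 8.5 days it gave Ccng1 for that day (1.16%). With all libraries, edgeR does not show the rise of the members in EDL muscles to differ from SOL muscles.

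The comparison genes set a scale for these changes. Cdkn1a was at 16 and 13.6 FPKM in Cre- and at 89.2 and 139 FPKM in Cre+ EDL libraries after 2.5 days, and at 29.9 and 29.5 FPKM against 158 and 130 FPKM after 8.5 days. Its changes of 2.61 ± 0.21 (adjusted p = 1.04e-05) and 2.09 ± 0.21 (adjusted p = 4.5e-05) were above those of all 32 members at the same day. In SOL muscles it was at 16.4 and 13.8 FPKM against 35.7 and 26.9 FPKM after 2.5 days, and at 47.1 and 42.9 FPKM against 95.6 and 72.1 FPKM after 8.5 days. These changes of 0.90 (adjusted p = 0.0942) and 0.86 (adjusted p = 0.113) passed in DESeq2 and, averaged over both days, in edgeR (0.88 ± 0.14, adjusted p = 0.00815). The EDL change exceeded the SOL change by 1.72 ± 0.29 after 2.5 days (adjusted p = 0.00807) and by 1.24 ± 0.28 after 8.5 days (adjusted p = 0.0833).

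Trp53 itself was at 7.43 and 8.48 FPKM in Cre- and at 8.54 and 12.4 FPKM in Cre+ EDL libraries after 2.5 days, and at 7.83 and 10.3 FPKM against 13.8 and 11.6 FPKM after 8.5 days. At each day both Cre+ libraries lay above both Cre- libraries in FPKM, which is not shifted to the bulk of genes. With TMM the changes of 0.06 ± 0.17 and 0.30 ± 0.17 did not pass (edgeR adjusted p = 0.827 and 0.266). Mdm2, a direct p53 target as well as its inhibitor, was at 19.5 and 16.6 FPKM against 19.4 and 20.9 FPKM after 2.5 days and at 23.0 and 15.8 FPKM against 19.7 and 18.9 FPKM after 8.5 days, and the groups overlapped at both days. Its changes were -0.17 ± 0.14 and -0.18 ± 0.14 (adjusted p = 0.39 and 0.422), and with library size alone they were 0.16 and -0.01. These are transcript levels, from which protein levels cannot be read.

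Of 21 tested genes of the p53 core and its regulators, 6 were higher and 3 lower in Cre+ EDL muscles after 2.5 days, and 2 and 3 after 8.5 days, against 13.8% and 10.2% of all genes at 2.5 days and 7.63% and 6.5% at 8.5 days. Those that passed at both days were the p53 relatives Trp63 (1.23 ± 0.27 and 1.66 ± 0.27) and Trp73 (3.63 ± 0.72 and 2.51 ± 0.75), which were higher, and Mdm4 (-0.50 and -0.59), the ubiquitin ligase gene Rchy1 (-0.67 and -0.68) and the acetyltransferase gene Ep300 (-0.59 and -0.58), which were lower. Trp63 was at 2.22 and 2.25 FPKM in Cre- and at 7.96 and 5.17 FPKM in Cre+ libraries after 2.5 days. Trp73 did not exceed 0.19 FPKM in any library. Of 35 further p53 targets tested, 4 were higher and 5 lower after 2.5 days, and 3 and 3 after 8.5 days, which is near those shares of all genes. Besides Cdkn1a, the antioxidant gene Gpx1 (1.08 ± 0.14 and 1.57 ± 0.14) and the membrane-rupture gene Ninj1 (1.62 ± 0.15 and 1.84 ± 0.16) were higher at both days, and Cdip1 (-0.90 and -0.72) and the mTOR inhibitor gene Ddit4 (-0.98 and -0.88) were lower. In SOL muscles 0 genes of either list passed at either day by edgeR, with 2 core and 7 further genes at an unadjusted p under 0.05 at 2.5 days (2053 of all 15372 genes) and 0 and 6 at 8.5 days (1015 of all genes).

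After 5.5 days Cdkn1a was high in 1 of the 2 Cre+ EDL libraries. Of the 2 Cre+ EDL libraries, replicate 1 had 1.02 FPKM of Pou5f1 and replicate 2 had 27.7 FPKM, between the Cre+ libraries of 2.5 days (17.5 and 70.5 FPKM). Cdkn1a was at 22.3 FPKM in replicate 1 and at 101 FPKM in replicate 2, against 22.5 and 18.6 FPKM in the Cre- libraries. In replicate 2 this was 4.91 times the mean of the Cre- libraries of that day, while Bax was at 1.15 times, Zmat3 at 1.19 times, Perp at 0.77 times and Aen at 1.13 times. Eda2r was at 1.67 times, Bbc3 at 1.99 times and Tnfrsf10b at 1.43 times that mean in replicate 2, and at 1.35, 1.69 and 1.37 times in replicate 1. This description rests on single libraries, and the change of Cdkn1a over both did not pass (1.44 ± 0.42, edgeR adjusted p = 0.226). In the Cre+ EDL library of 2.5 days with the lower Pou5f1 (17.5 FPKM), the same ratios were 6.04 for Cdkn1a, 1.60 for Bax, 1.82 for Zmat3, 1.95 for Perp, 1.36 for Aen, 4.17 for Eda2r, 2.46 for Bbc3 and 1.92 for Tnfrsf10b. These members were picked because they passed at 2.5 days, in a test that included this library, so the days cannot be compared fairly. Ratios of FPKM are also not shifted to the bulk of genes. With library size alone the median change of all genes in EDL muscles of 2.5 days was 0.28, and that of 5.5 days was not computed. By edgeR over all 24 libraries, 0 of 32 members passed after 5.5 days in EDL (0.304% of all genes did) and 0 in SOL muscles (0% of all genes, with 597 genes at an unadjusted p under 0.05). DESeq2 also gave 0 members in both (1.1% of all genes in EDL and 0% in SOL muscles). By edgeR 2 members in EDL and 0 in SOL muscles had an unadjusted p under 0.05, against 1307 and 597 of all 15478 genes. Of the 35 further p53 targets, Gpx1 was higher and Ddit4 lower in EDL muscles (0.258% and 0.0452% of all genes), as at the other days. None of the 21 core genes passed there, and no gene of either list in SOL muscles. The 4 OSKM genes summed to between 8.43 and 15.4 FPKM in Cre+ and between 15.7 and 16.1 FPKM in Cre- SOL libraries of 5.5 days, and 0 of 4 passed.

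**Figure D5:**
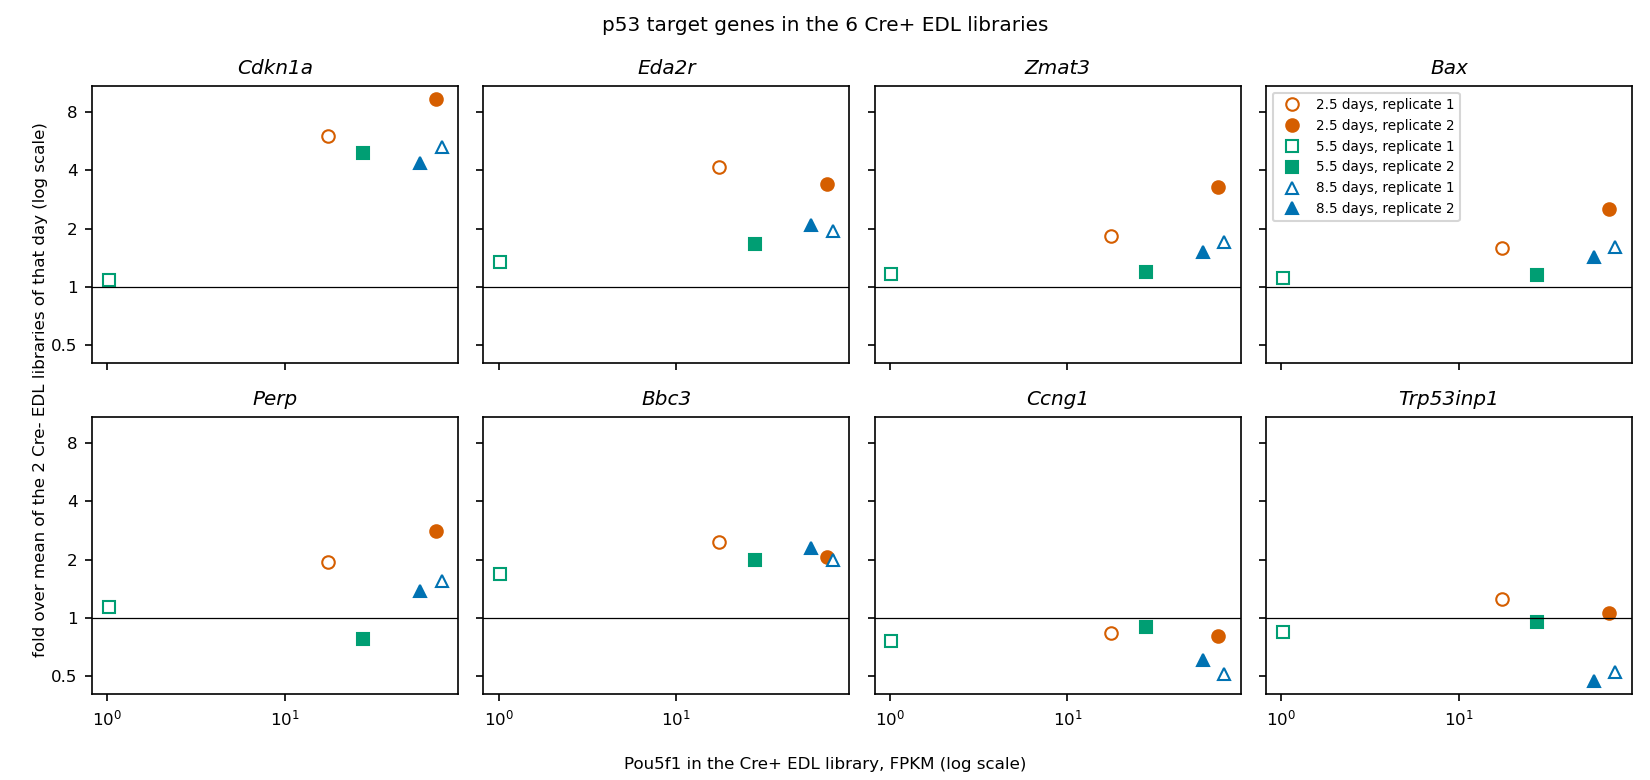
Ratio of FPKM in each of the 6 Cre+ EDL libraries to the mean of the 2 Cre- EDL libraries of the same day (vertical, log scale) against Pou5f1 FPKM in that library (horizontal, log scale), with colour and shape for days and filled points for replicate 2. In the 5.5-day library with 27.7 FPKM of Pou5f1, Cdkn1a is at 4.91 while Bax, Zmat3 and Perp are between 0.77 and 1.19. Eda2r and Bbc3 are above the Cre- mean in that library as well, though by less than Cdkn1a. Both are also above the Cre- mean in the other 5.5-day library, which had less Pou5f1.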

How the data were processed

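The authors sequenced stranded, single-end libraries of polyA RNA, aligned the reads to mm10 with STAR 2.5.3a and counted unique reads on RefSeq exons with HOMER; FastQC 0.11.2 is also listed. The deposited values are raw counts per gene for each of 24 libraries, without normalization. Whether the counting used strand is not given in the sources used here. One edgeR 4.0.16 model (R 4.3.3) with 8 group means covered the 16 libraries of 2.5 and 8.5 days, with TMM factors, a minimum count of 10 in edgeR's filter and 15372 genes tested, while a model of all 24 libraries (15478 genes) gave the tests of 5.5 days. A gene passed at a Benjamini-Hochberg adjusted p below 0.05 and an absolute log2 fold change over 0.5. DESeq2 1.42.0, other scalings, filters and thresholds, and fits without each library were the alternatives. Replicate numbers were used to pair EDL with SOL libraries, where same-numbered libraries deviated together (correlation between 0.174 and 0.441 in all 6 groups). The sample labels name no mouse, so that such a pair came from 1 animal is assumed. With 2 libraries a group, no exact permutation test could pass, and none is given. Alternatives for the mean of days, the difference between days and EDL against SOL in Cre- mice were chosen after seeing the data.

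Members that passed a Cre+ against Cre- test were to be given with library values where a group mean reached 1 FPKM, the others by role with the better expressed as examples, beside Cdkn1a, Mdm2, Trp53 and up to 5 genes of each of 2 related lists that passed at both days in EDL muscles. The members, lists and rules were chosen with earlier results of these data known.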

Additional observations from a re-analysis of the deposited data

Results flagged for a closer look

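The change of Cdkn1a was larger in EDL than in SOL muscles after 2.5 days by 1.72 on the log2 scale (edgeR adjusted p = 0.00807), and both Cre+ libraries lay above both Cre- libraries in each muscle. Gpx1 differed between the muscles by 0.80 after 2.5 days (adjusted p = 0.0423) and by 0.98 after 8.5 days (adjusted p = 0.0497). Ninj1 differed by 1.15 (adjusted p = 0.0128) and by 1.25 (adjusted p = 0.0265). Without SOL Cre+ replicate 2 of 8.5 days 1 gene in all was higher in that test, so at most 1 of both 8.5-day calls held there. Each was picked out because the test of the difference between muscles passed; none of the 32 members did so. With 2 libraries a group, which of them stands apart could not be tested, although replicates differed most in the EDL Cre+ group of 2.5 days and the EDL Cre- group of 8.5 days (mean chi-square per gene of 147 and 139, at most 74.6 elsewhere).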

How the results depend on the processing

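With library size alone the split of all genes in EDL muscles after 2.5 days was 4206 higher and 610 lower, against 2118 and 1566 with TMM, and after 8.5 days 1956 and 542 against 1173 and 999. In brackets here and below is the share of all genes called in the same setting and direction. The count of 7 members higher in EDL muscles after 2.5 days was 7 with DESeq2 size factors (14.2%), DESeq2 on the same libraries (14.6%), a stricter filter (14.3%) and all 24 libraries (14.6%). It was 5 with DESeq2 on the 4 libraries of the comparison alone (13.8%; Aen and Tnfrsf10b lost), 6 with no filter on low counts (10.9%; Tnfrsf10b lost), 2 with edgeR on those 4 libraries (10.5%), 2 with a log2 fold change over 1 (7.88%), 12 with library size alone (27.4%), and 2 to 5 without 1 library (8.17% to 15.9%). The count of 0 lower there was 1 with DESeq2 on 4 libraries (8.78%; Ccng1), 1 with no limit on fold change (12.1%; Phlda3), and 0 to 3 without 1 library (4.53% to 11.2%). After 8.5 days the 1 higher member was 0 with edgeR on 4 libraries (4.71%) and with a log2 fold change over 1 (3.77%), 2 with library size alone (12.7%), and 0 to 1 without 1 library (3.43% to 7.8%), the 1 being Eda2r without Cre- replicate 1. The 2 lower members were 0 with edgeR on 4 libraries (2.31%) and 0 to 4 without 1 library (1.23% to 9.07%), 4 being the count without Cre- replicate 2. In SOL muscles the counts were 0 in each setting run, except 1 lower after 2.5 days (Phlda3) by DESeq2 on 4 and on 16 libraries (1.81% and 1.22%). The count of members that differed between muscles after 2.5 days was 0, and 2 with DESeq2 (9.43% in either direction; Bax, Fdxr), 2 with library size alone (6.51%) and 0 to 3 without 1 library (0.739% to 11.3%), the 3 being Aen, Bax and Zmat3 without EDL Cre+ replicate 1. After 8.5 days it was 0, and 0 to 1 without 1 library (0.0126% to 1.16%), the 1 being Ccng1 without EDL Cre- replicate 2. Same-numbered Cre+ and Cre- libraries did not deviate together (correlation -0.171 to 0.058). For the mean of days in EDL muscles, the 5 higher and 2 lower were 10 and 1 with library size alone (23.7% and 4.93%), and 3 to 7 and 1 to 4 without 1 library (10.7% to 14.2% and 8.31% to 11.8%). For EDL over SOL in Cre- mice, the 5 higher were 3 with library size alone (8.18%) and 3 to 7 without 1 library (9.11% to 11.6%), and the 4 lower were 4 (13.8%) and 4 to 5 (9.45% to 10.8%). With the replicate block (number within day) 6 members were higher in EDL muscles after 2.5 days (13.7%), Tnfrsf10b being lost (0.65, adjusted p = 0.0538), and no other call of a member changed. With a block for same-numbered EDL and SOL libraries, assumed to come from 1 mouse, 0 members differed between muscles (6.63% of all genes after 2.5 days and 1.14% after 8.5 days). The calls in Cre- mice were then the same 9 genes (11.2% higher, 11.9% lower). No value of a single gene that had passed changed sign in any setting. Where 1 library was left alone in a group, it was assumed to vary like the other groups. Causes were not tested.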
